A study of Drosophila melanogaster with 8 samples.

Results

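The Lcp65A genes are a cluster of larval cuticle protein genes on chromosome arm 3L of Drosophila melanogaster. The 9 genes described here are Lcp65Ab1, Lcp65Ab2, Lcp65Ac, Lcp65Ad, Lcp65Ae, Lcp65Af, Lcp65Ag1, Lcp65Ag2 and Lcp65Ag3, taken by their symbols from the 13970 genes with deposited values. They were chosen by symbol after an earlier reading of these TPM values showed members differing in opposite directions between dmpnpaseKO and control libraries, so the difference between genotypes is given as a description, with no test on the members. RNA bound by J2, an antibody that recognises double-stranded RNA, was sequenced from the mitochondrial and cytosolic fractions of larvae at 4 days. The tested larvae were dmpnpaseKO (;;dmpnpase-/dmpnpase-), homozygous for an 8-nucleotide deletion made by CRISPR/Cas9 in exon 2 of the PNPase gene, and the controls (;;) carried the intact gene, both in the wDah background. Each combination of genotype and fraction had 2 libraries, 8 in all. The labels give the age in days for both genotypes and not the larval instar, the cells of origin or whether the libraries of a group came from separate collections of larvae, so their spread may be technical.

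The larval cuticle is secreted by the epidermis and consists of chitin fibres embedded in protein, and it is shed and rebuilt at each moult. Most of its proteins, those of the Lcp65A genes included, are small secreted proteins that carry the Rebers-Riddiford motif, a stretch that binds chitin. Such genes occur in tandem clusters of close relatives whose RNA levels change with the moulting cycle and with the larval stage. PNPase is a ribonuclease of the mitochondrion that degrades RNA from the 3′ end. The cuticle genes lie in the nucleus and their mRNAs are translated on the endoplasmic reticulum, so their reads in the mitochondrial fraction came from nuclear-encoded RNA recovered with it.

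Levels are TPM, the share of a library's transcripts after correction for their length. Read numbers cannot be had from such values, and no counting interval is given. For comparisons between libraries they were scaled on 8 rRNA pseudogenes as in the methods of the study, and differences are on the log2(scaled TPM + 1) scale, which understates the change of low genes. In this bulk material fewer cells of a type and less RNA per cell cannot be told apart, and neither can the amount of an RNA and its recovery by J2. The PNPase gene itself was listed at 0.0415 and 0 TPM in dmpnpaseKO mitochondria and at 0.0197 and 0 TPM in control mitochondria, and at 0 in the 4 cytosolic libraries, so these values do not serve as a check of the genotype labels. Between 61 and 11051 genes were above 0 TPM in a library. The lowest number was that of dmpnpaseKO cytosol replicate 2, in which none of the genes of 400 to 800 exonic nucleotides was above 0, and no 0 there is taken as the absence of an RNA. Nuclear-encoded genes other than rRNA pseudogenes took 1.18% and 0.586% of TPM in dmpnpaseKO mitochondria and 0.132% and 0.0755% in control mitochondria. On the pseudogene scale the median of all 475 tested genes was 2.23 higher in dmpnpaseKO than in control mitochondria, and the members are read against that shift. This median depends on the filter for testing, a mean of at least 1 TPM. Over all 11606 genes above 0 in any library it was 0.14.

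In the mitochondrial fraction the Lcp65A RNA of dmpnpaseKO larvae consisted mainly of Lcp65Ag2, Lcp65Ag3 and Lcp65Ag1, whereas that of control larvae consisted mainly of Lcp65Ab1. Of the 9 members, 5 had both dmpnpaseKO libraries above both control libraries (Lcp65Ae, Lcp65Af, Lcp65Ag1, Lcp65Ag2 and Lcp65Ag3), 1 had both below (Lcp65Ab1) and 3 overlapped (Lcp65Ab2, Lcp65Ac and Lcp65Ad). Among the 475 tested genes, 91.4% did not overlap with dmpnpaseKO higher and 3.37% with dmpnpaseKO lower. Among all 11606 genes above 0 in any library these shares were 62.8% and 1.47%. Only 4 members had the mean of at least 1 TPM needed for testing, Lcp65Ab1 through its control mitochondrial libraries and the 3 Ag genes through the dmpnpaseKO mitochondrial libraries, so having passed this filter says nothing more about them. The direction of most members was thus that of most genes, and the direction of Lcp65Ab1 was that of few.

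Lcp65Ab1 (FBgn0020644, BDGP6 3L:6149548-6149960, plus strand) is a gene of a single exon of 413 nucleotides. Its deposited values were 1.55 and 0.373 TPM in dmpnpaseKO mitochondria, against 47.0 and 8.53 TPM in control mitochondria. Both dmpnpaseKO libraries were below both controls, although the controls themselves were far apart. Among nuclear-encoded genes above 0 it ranked 1022 of 11019 and 2012 of 7649 in dmpnpaseKO mitochondria, against rank 1 of 8725 and rank 7 of 4814 in control mitochondria. After scaling, its level was 1.34 and 0.411 in dmpnpaseKO mitochondria and 38.0 and 9.08 in control mitochondria, so that the control mean was 26.9 times the dmpnpaseKO mean. The log2 difference was -3.45 ± 1.04 (SE from the spread of the libraries, n = 2 each), opposite in sign to the median of all tested genes.

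Lcp65Ag2 (FBgn0020637, 3L:6132990-6133593, minus strand), with 1 intron of 61 nucleotides, had 32.8 and 15.2 TPM in dmpnpaseKO mitochondria, against 0.637 and 0.743 TPM in control mitochondria. It was the most abundant member in both dmpnpaseKO mitochondrial libraries, where it ranked 85 and 81 among nuclear-encoded genes, against ranks 336 and 187 in the control libraries. Its scaled levels of 28.3 and 16.7 in dmpnpaseKO mitochondria and 0.515 and 0.791 in control mitochondria gave a ratio of means of 34.5 and a log2 difference of 3.79 ± 0.38 (SE, n = 2 each).

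Lcp65Ag3 (FBgn0086611, 3L:6130386-6130989, minus strand) had the same exonic length as Lcp65Ag2, 543 nucleotides, and followed it closely. It had 32.0 and 10.1 TPM in dmpnpaseKO mitochondria, against 0.413 and 0 TPM in control mitochondria. No ratio is given, since a control library was listed at 0, and the log2 difference was 4.01 ± 0.66 (SE, n = 2 each). The plus-strand annotation asRNA:CR46005 overlaps Lcp65Ag3 on the opposite strand. The strand setting of the quantification is not given in the sources used here, so reads of Lcp65Ag3 and of this antisense RNA cannot be told apart.

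Lcp65Ag1 (FBgn0020638, 3L:6134697-6135274, minus strand) was higher in dmpnpaseKO mitochondria on the pseudogene scale but by less than most tested genes. It had 13.9 and 4.81 TPM in dmpnpaseKO mitochondria, against 3.25 and 1.33 TPM in control mitochondria. The ratio of scaled means was 4.28 and the log2 difference 1.61 ± 0.60 (SE, n = 2 each), below the median of 2.23. The difference turned negative under median-of-ratios scaling (-0.19) and after scaling to the same summed nuclear-encoded TPM (-0.88). Median-of-ratios scaling rests on 31 genes, those outside the mitochondrial genome that were above 0 in every library. Lcp65Ag1 was the main Ag gene in control mitochondria, with 75.6% and 64.2% of the summed Ag TPM, and the least abundant in dmpnpaseKO mitochondria, with 17.6% and 16.0%.

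Lcp65Ae (FBgn0020640, 3L:6137583-6138118) and Lcp65Af (FBgn0020639, 3L:6136215-6136791), also on the minus strand, were low in every library. Lcp65Ae had 1.90 and 0.755 TPM in dmpnpaseKO mitochondria and 0.270 and 0.137 TPM in control mitochondria. Lcp65Af had 1.80 and 0.678 TPM in dmpnpaseKO mitochondria and 0.184 and 0.235 TPM in control mitochondria. The ratios of scaled means were 6.80 for Lcp65Ae and 5.76 for Lcp65Af, and their log2 differences, 0.90 ± 0.27 and 0.82 ± 0.28 (SE, n = 2 each), turned negative after scaling to the same summed nuclear-encoded TPM (-0.14 and -0.24).

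The 3 remaining members gave no difference that could be read. Lcp65Ac (FBgn0020642) had 0.834 and 0 TPM in dmpnpaseKO mitochondria and 0.636 and 0 TPM in control mitochondria. Lcp65Ad (FBgn0020641) was above 0 in dmpnpaseKO mitochondria replicate 1 alone, at 0.0872 TPM. Lcp65Ab2 (FBgn0020643, 3L:6146674-6147089, plus strand) was listed at 0 in all 8 libraries, as were 16.9% of all 13970 genes. It is a close duplicate of Lcp65Ab1, of 416 exonic nucleotides, and how reads shared by both copies were assigned is not given in the sources used here.

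**Figure D1:**
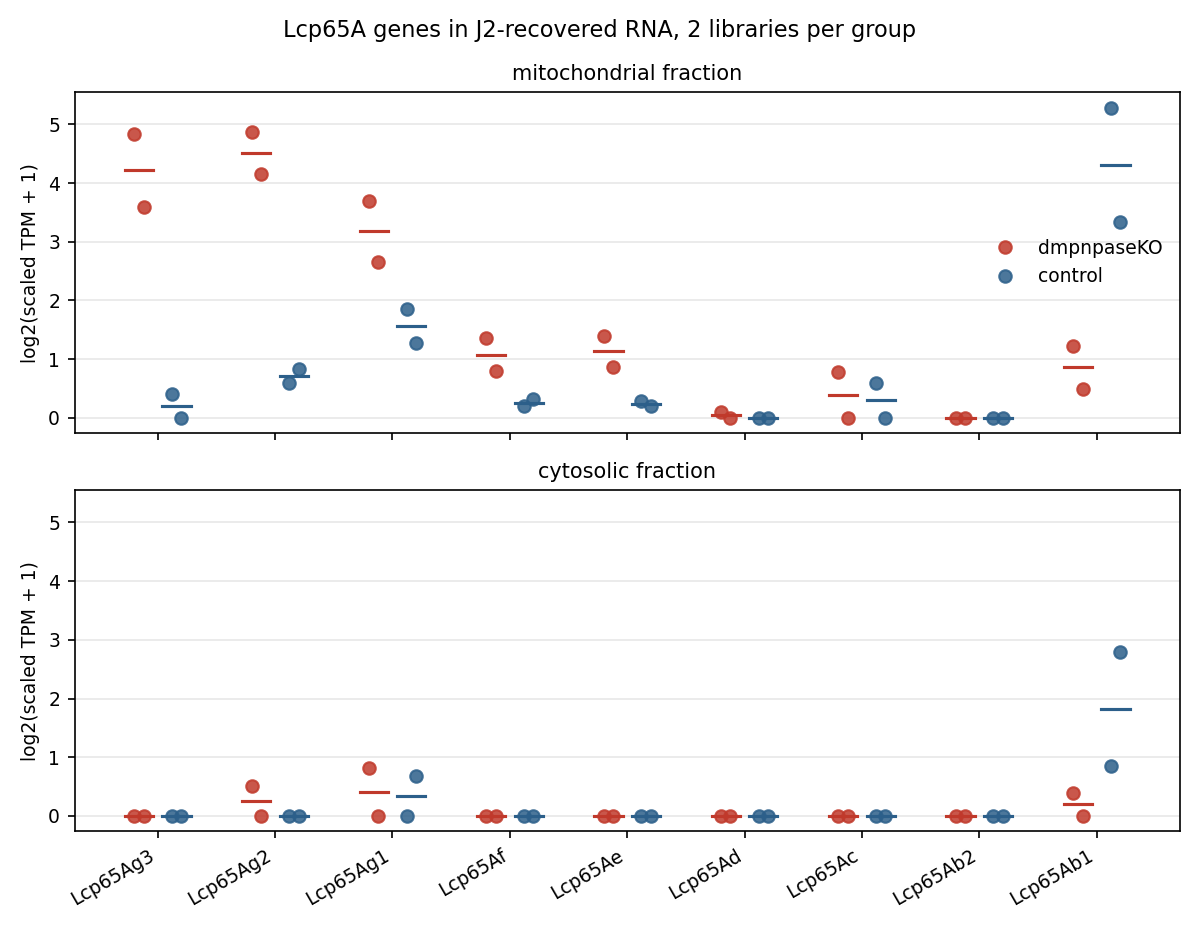
Level of each of the 9 Lcp65A genes, as log2(scaled TPM + 1), in the mitochondrial (upper) and cytosolic (lower) fraction. Each point is 1 library (2 per group, dmpnpaseKO left and control right) and each line the mean of 2 points. The 3 Ag genes were high in dmpnpaseKO mitochondria and Lcp65Ab1 in control mitochondria, and only Lcp65Ab1, Lcp65Ag1 and Lcp65Ag2 were above 0 in any cytosolic library.

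Summing the close paralogs left these directions in place. The sum of Lcp65Ab1 and Lcp65Ab2 equals Lcp65Ab1 in every library. The scaled sum of the 3 Ag genes was 68.0 and 33.1 in dmpnpaseKO mitochondria, against 3.47 and 2.21 in control mitochondria, a ratio of means of 17.8 and a log2 difference of 3.68 ± 0.56 (SE, n = 2 each). Reads moved between the Ag genes would not change this sum, but they could change the order of Lcp65Ag1, Lcp65Ag2 and Lcp65Ag3. The scaled sum of all 9 members was 73.3 and 35.1 in dmpnpaseKO mitochondria and 42.4 and 11.7 in control mitochondria. These ranges overlapped, and the log2 difference of 1.14 ± 1.03 (SE, n = 2 each) was below the median of all tested genes.

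The members' shares of their own summed TPM do not depend on any scaling between libraries. Lcp65Ab1 made up 1.83% and 1.17% of the summed TPM of the 9 genes in dmpnpaseKO mitochondria, against 89.7% and 77.7% in control mitochondria. The 3 Ag genes together made up 92.7% and 94.3% in dmpnpaseKO mitochondria, against 8.20% and 18.9% in control mitochondria. The replicates of each genotype lay close together beside the distance between the genotypes. The ratio of Lcp65Ab1 to the summed Ag genes was 0.0197 and 0.0124 in dmpnpaseKO mitochondria and 10.9 and 4.11 in control mitochondria. Lcp65Ae held 2.24% and 2.37% in dmpnpaseKO mitochondria and 0.516% and 1.25% in control mitochondria. Lcp65Af held 2.12% and 2.13% in dmpnpaseKO mitochondria and 0.351% and 2.14% in control mitochondria, where the groups overlapped.

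**Figure D2:**
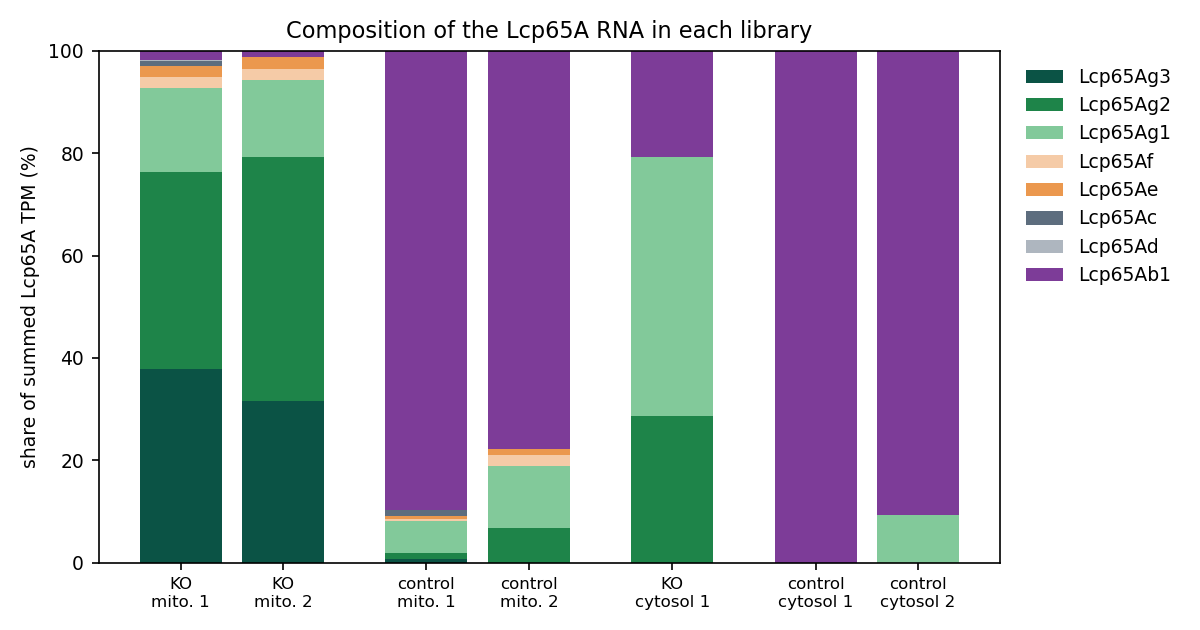
Share (%) of each member in the summed deposited TPM of the Lcp65A genes, 1 bar per library, without dmpnpaseKO cytosol replicate 2, in which all members were at 0 (KO, dmpnpaseKO; mito., mitochondria). Lcp65Ab1 filled 1.83% and 1.17% of the bars of dmpnpaseKO mitochondria and 89.7% and 77.7% of those of control mitochondria.

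A view that sets the members against nuclear-encoded RNA alone separated the Ag genes from one another. Lcp65Ag2 made up 0.277% and 0.259% of nuclear-encoded TPM in dmpnpaseKO mitochondria, against 0.0483% and 0.0984% in control mitochondria. Lcp65Ag3 made up 0.271% and 0.172% in dmpnpaseKO mitochondria, against 0.0313% and 0% in control mitochondria. Both genes thus stayed higher in dmpnpaseKO, without overlap. Lcp65Ag1 was lower in dmpnpaseKO mitochondria on this measure, with 0.117% and 0.0821% against 0.246% and 0.176% in control mitochondria. Lcp65Ae was also lower, with 0.0161% and 0.0129% in dmpnpaseKO mitochondria against 0.0205% and 0.0182% in control mitochondria. Lcp65Af overlapped, with 0.0152% and 0.0116% in dmpnpaseKO mitochondria and 0.0140% and 0.0312% in control mitochondria. Lcp65Ac made up 0.00704% and 0% in dmpnpaseKO mitochondria and 0.0482% and 0% in control mitochondria. Lcp65Ab1 made up 0.0131% and 0.00636% in dmpnpaseKO mitochondria, against 3.56% and 1.13% in control mitochondria. A higher level in dmpnpaseKO under each way of scaling was therefore found for Lcp65Ag2 and Lcp65Ag3, and a lower level under each way of scaling for Lcp65Ab1.

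**Figure D3:**
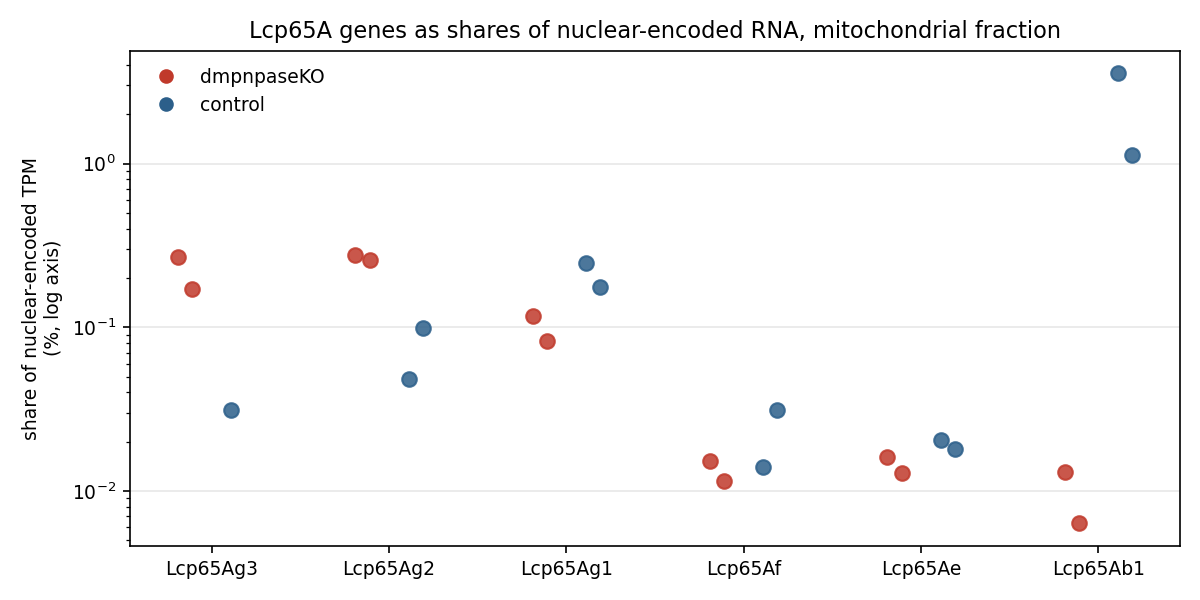
Share (%, log axis) of nuclear-encoded TPM in the mitochondrial fraction, taken by the 6 members that were above 0 in at least 3 of its 4 libraries. Each point is 1 library, dmpnpaseKO left and control right, and the control library with Lcp65Ag3 at 0 is not drawn. Lcp65Ag2 and Lcp65Ag3 lay higher in dmpnpaseKO, Lcp65Ag1 and Lcp65Ae lay lower, and Lcp65Ab1 was the lowest of the 6 in each dmpnpaseKO library and the highest in each control library.

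The 9 members span 19.6 kb. The 5 members that were higher in dmpnpaseKO mitochondria on the pseudogene scale all lie on the minus strand at one end, in the order Lcp65Ag3, Lcp65Ag2, Lcp65Ag1, Lcp65Af and Lcp65Ae, and their log2 differences were 4.01, 3.79, 1.61, 0.82 and 0.90. The 4 plus-strand members lie at the other end, and the outermost of them, Lcp65Ab1, was the member that was lower. As a share of nuclear-encoded TPM this grouping did not hold, since Lcp65Ag1 and Lcp65Ae were lower there and Lcp65Ag2 and Lcp65Ag3 higher. Genes between and beside the members had other values. Cpr65Au, which lies between Lcp65Ag3 and Lcp65Ag2, was listed at 0.0251 and 0 TPM in dmpnpaseKO mitochondria and at 0 in control mitochondria. The cuticle gene Cpr65Ax2 lies on the minus strand directly beside Lcp65Ab1 and had 37.5 and 5.20 TPM in dmpnpaseKO mitochondria, against 4.84 and 0.794 TPM in control mitochondria. These values lie in the opposite direction to those of Lcp65Ab1, but as a share of nuclear-encoded TPM Cpr65Ax2 overlapped, with 0.316% and 0.0888% in dmpnpaseKO mitochondria and 0.367% and 0.105% in control mitochondria. In the cytosol Cpr65Ax2 had 0.654 and 0 TPM in dmpnpaseKO, against 2.26 and 40.5 TPM in the control, the same direction as Lcp65Ab1 there. Cpr65Ax1, the gene next to Lcp65Ab2, was listed at 0 in all 8 libraries, as Lcp65Ab2 was. How reads shared by copies were assigned is not given, so the values of Lcp65Ab1 may include RNA of Lcp65Ab2. Whether the like holds for Cpr65Ax2 and Cpr65Ax1 was not tested. Lcp65Aa, which shares the name of the cluster, had 0.140 and 0 TPM in dmpnpaseKO mitochondria and 0.175 and 0 TPM in control mitochondria, and the adult cuticle gene Acp65Aa had 0.0167 and 0 TPM in dmpnpaseKO mitochondria and 0.0240 and 0 TPM in control mitochondria.

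**Figure D4:**
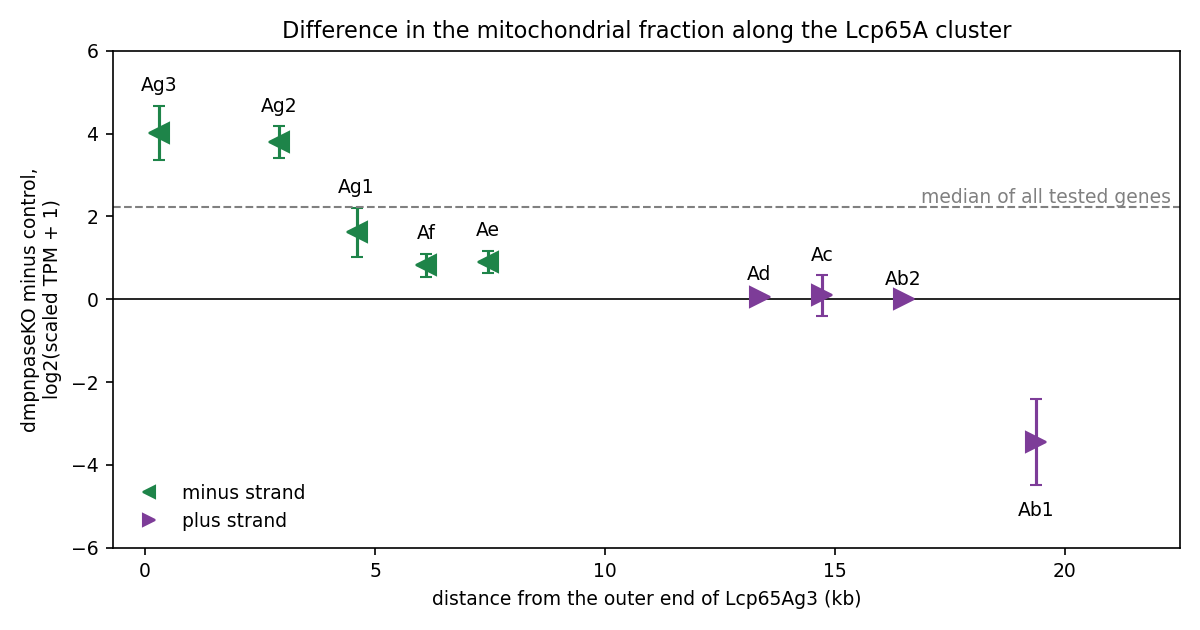
Log2 difference, dmpnpaseKO minus control, in the mitochondrial fraction against the distance of each member along the cluster in kb (arrowheads give the strand; error bars, SE of the difference from 2 libraries per group; dashed line, median of the 475 tested genes, 2.23). Lcp65Ag3 and Lcp65Ag2 lay above the median, Lcp65Ag1, Lcp65Af and Lcp65Ae between 0 and the median, and Lcp65Ab1 at -3.45. Lcp65Ae and Lcp65Af were too low to be among the tested genes, and this scale understates the change of low genes. Over all 11606 genes above 0 the median was 0.14.

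In the cytosolic fraction most members were at 0, and Lcp65Ab1 was lower in dmpnpaseKO there too. Lcp65Ab1 had 0.334 and 0 TPM in the dmpnpaseKO cytosol, against 0.791 and 3.25 TPM in the control cytosol, and did not overlap. Among the 475 tested genes, 5.26% did not overlap with dmpnpaseKO lower and 8.63% with dmpnpaseKO higher. The log2 difference of Lcp65Ab1 was -1.62 ± 0.99 (SE, n = 2 each). It was -1.43 without dmpnpaseKO cytosol replicate 2, the library with 61 genes above 0, and -0.65 without control cytosol replicate 2. Lcp65Ag1 had 0.814 and 0 TPM in the dmpnpaseKO cytosol and 0 and 0.331 TPM in the control cytosol, and these overlapped. Lcp65Ag2 was above 0 in dmpnpaseKO cytosol replicate 1 alone, at 0.461 TPM. Lcp65Ag3 and the other 5 members were listed at 0 in all 4 cytosolic libraries. In dmpnpaseKO cytosol replicate 1 the Ag genes held 79.2% of the summed TPM of the cluster and Lcp65Ab1 20.8%, while in the control cytosol Lcp65Ab1 held 100% and 90.8%. The Ag share there rests on 1 library with values at or below 0.814 TPM.

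The fractions were compared within each genotype, a comparison that the choice of genes did not use, although it shares libraries with the one that did. In dmpnpaseKO larvae the 3 Ag genes had entered the fit through the mitochondrial libraries that form the high side of this comparison, so their differences are a description and no p is given for them. The scaled levels of Lcp65Ag2 were 28.3 and 16.7 in dmpnpaseKO mitochondria and 0.430 and 0 in the dmpnpaseKO cytosol. Those of Lcp65Ag3 were 27.7 and 11.1 in dmpnpaseKO mitochondria and 0 in the dmpnpaseKO cytosol, and those of Lcp65Ag1 were 12.0 and 5.31 in dmpnpaseKO mitochondria and 0.759 and 0 in the dmpnpaseKO cytosol. For each of the 3 genes both mitochondrial libraries were above both cytosolic ones. The log2 differences, mitochondria minus cytosol, were 4.25 for Lcp65Ag2, 4.22 for Lcp65Ag3 and 2.77 for Lcp65Ag1, beside a median of 2.42 over all 475 genes, of which limma called 81.1% higher and 0.842% lower. After scaling to the same summed nuclear-encoded TPM they were 2.73 for Lcp65Ag2, 2.91 for Lcp65Ag3 and 1.32 for Lcp65Ag1. Without dmpnpaseKO cytosol replicate 2, which leaves 1 cytosolic library, they were 4.00 for Lcp65Ag2, 4.22 for Lcp65Ag3 and 2.36 for Lcp65Ag1. Lcp65Ab1 gave a log2 difference of 0.67 ± 0.90 (SE; limma adjusted p = 0.497).

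In control larvae no Ag gene passed the test between fractions. Lcp65Ab1 was highest in both mitochondrial libraries, with scaled levels of 38.0 and 9.08 in mitochondria and 0.797 and 5.91 in the cytosol, and the fractions did not overlap. Its log2 difference was 2.49 ± 0.90 (SE by limma). Lcp65Ab1 had entered the fit through these mitochondrial libraries, so this is a description and no p is given for it. Among all tested genes 64.0% did not overlap with mitochondria higher, while limma called 0.842% higher and 0.211% lower. Lcp65Ag1 gave 1.23 ± 0.67 (adjusted p = 0.640), Lcp65Ag2 0.72 ± 0.63 (adjusted p = 0.743) and Lcp65Ag3 0.21 ± 0.57 (adjusted p = 0.913), all by limma. In the 15 alternative fits that held it, the log2 difference of Lcp65Ab1 ranged from 1.21 to 3.47.

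Over the 8 libraries the members formed 2 patterns, which are described with the genes most like them among the 471 other tested genes, as Pearson correlations of log2 levels that share these libraries and their scaling. Lcp65Ag2 and Lcp65Ag3 had r = 0.986 with each other, and Lcp65Ag1 had r = 0.923 with Lcp65Ag2 and r = 0.903 with Lcp65Ag3. Lcp65Ab1 had r = 0.144 with Lcp65Ag1, -0.217 with Lcp65Ag2 and -0.238 with Lcp65Ag3. The genes most like Lcp65Ab1 were the larval cuticle protein gene Lcp3 (r = 0.97), CG15353 (r = 0.969) and the larval cuticle protein gene Lcp4 (r = 0.954). Lcp3 had 0.555 and 0.497 TPM in dmpnpaseKO mitochondria, against 37.4 and 17.4 TPM in control mitochondria. Lcp4 had 3.51 and 0.473 TPM in dmpnpaseKO mitochondria, against 37.3 and 10.4 TPM in control mitochondria. Of the 471 genes, 6 had r above 0.9 with Lcp65Ab1. This count depends on the filter for testing. Of the genes that passed it, 91.4% were higher in dmpnpaseKO mitochondria without overlap, against 62.8% of all genes above 0. The count therefore does not show how rare the pattern of Lcp65Ab1 is among all genes.

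The patterns of the Ag genes were those of many tested genes, and these counts depend on the same filter. With Lcp65Ag1, 255 of the 471 genes had r above 0.9, and with Lcp65Ag2 and Lcp65Ag3 the numbers were 325 and 291. The closest genes to Lcp65Ag1 were CG32603 (r = 0.993) and the muscle genes Mhc, the myosin heavy chain (r = 0.987), and Tm2, a tropomyosin (r = 0.985). Closest to Lcp65Ag2 were CG7465 (r = 0.998), CG4928 (r = 0.997) and CG31198 (r = 0.996). Closest to Lcp65Ag3 were CG12934, the midgut trypsin gene alphaTry and the mucin-type gene Muc55B, each with r = 0.998. The summed Ag genes lay closest to Mlc2, a myosin light chain gene (r = 0.996), followed by FBgn0003887 (r = 0.996) and Mf (r = 0.994).

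Other cuticle genes lay in both directions in the mitochondrial fraction, and most that did not overlap were higher, as among all genes. Of 114 other genes with names of cuticle protein families, 91 were above 0 in any library. Of the 114, 50 were higher in dmpnpaseKO without overlap, 7 were lower and 57 overlapped. Genes at 0 in all libraries are counted among the 57. Among all genes above 0, which leave such genes out, 62.8% were higher and 1.47% lower. Only 9 of the 114 reached the mean TPM needed for testing, some through their control mitochondrial libraries, and these do not stand for the list. limma called 2 of the 9 higher and 5 lower in dmpnpaseKO, against 78.7% higher and 2.53% lower among all 475 genes. Lcp3 was lower by a log2 difference of -4.03 ± 0.80 (SE by limma). It had entered the fit through its control mitochondrial libraries, so no p is given for it. Cpr65Ax2, the most abundant of the list, had 2.32 ± 1.36 and missed the threshold (limma adjusted p = 0.127). The same 5 genes were lower without overlap under each of the 5 scalings, and 2 were higher under each. These 5 had passed the filter through their control mitochondrial libraries. Among all 475 tested genes, 15 to 81 were lower and 225 to 434 higher without overlap, depending on the scaling. As a share of the TPM of all 125 cuticle genes, the members included, the Ag genes took 39.1% and 40.1% in dmpnpaseKO mitochondria, against 2.36% and 3.26% in control mitochondria. Lcp65Ab1 took 0.771% and 0.498% of it in dmpnpaseKO mitochondria, against 25.8% and 13.4% in control mitochondria.

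Genes for making chitin and for cuticle assembly were read in the same way. Of 16 listed, 13 were higher in dmpnpaseKO mitochondria without overlap, 0 were lower and 3 overlapped. Among all genes above 0, 62.8% were higher and 1.47% lower. Only 2 of the 16 were tested, both admitted by their dmpnpaseKO mitochondrial libraries, so no p is given for them. The log2 differences were 1.22 ± 0.41 for verm, a chitin deacetylase gene, and 2.22 ± 0.42 for Alas, the first enzyme of haem synthesis (SE by limma). Both log2 differences were below the median of all tested genes, but the 1 added before taking logs shrinks differences where control values are this small. Alas had 5.85 and 2.75 TPM in dmpnpaseKO mitochondria, against 0.118 and 0.0280 TPM in control mitochondria. For verm these values were 4.63 and 2.11 TPM, against 0.966 and 0.675 TPM. Their place below the median is therefore not read as a smaller rise than that of most genes. After scaling to the same summed nuclear-encoded TPM, 1 of these 2 genes was higher and 1 lower without overlap. Of all 475 tested genes, 225 were higher and 81 lower under that scaling. Of 4 tanning genes with values, which act in hardening and colouring the cuticle, none was tested. The tyrosine hydroxylase gene ple had 0.359 and 0.218 TPM in dmpnpaseKO mitochondria and 0.0278 and 0.0897 TPM in control mitochondria, and the dopa decarboxylase gene Ddc had 0.212 and 0.173 TPM in dmpnpaseKO mitochondria and 0 in control mitochondria.

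Markers of other larval tissues were summed beside the members, and their calls are read against the 78.7% of all tested genes that limma called higher in dmpnpaseKO mitochondria. The midgut list of 8 genes, summed after scaling, was at 288 and 128 in dmpnpaseKO mitochondria and at 32.2 and 9.31 in control mitochondria, with 7 of 7 tested genes higher by limma, near the share of all genes. The muscle list of 8 genes with values was at 146 and 95.8 in dmpnpaseKO mitochondria and at 19.5 and 14.0 in control mitochondria, with 5 of 6 tested genes higher, also near that share. The fat body list of 7 genes was at 29.5 and 28.9 in dmpnpaseKO mitochondria and at 40.0 and 31.5 in control mitochondria. limma called 4 of its 5 tested genes lower, against 2.53% of all tested genes. Some of these had reached the mean TPM needed for testing through their control libraries, so this count is not support. Of all 7 genes, tested or not, 1 was higher and 6 were lower without overlap. Among all genes above 0 these shares were 62.8% and 1.47%. Within the fat body list, the larval serum protein gene Lsp1beta had 0.102 and 0.0590 TPM in dmpnpaseKO mitochondria and 20.8 and 14.0 TPM in control mitochondria. The gene apolpp, which encodes the lipoprotein of the haemolymph, had 33.9 and 26.1 TPM in dmpnpaseKO mitochondria and 3.82 and 3.10 TPM in control mitochondria. The salivary gland list of 6 genes, none of them tested, was at 2.81 and 1.26 in dmpnpaseKO mitochondria and at 1.60 and 4.21 in control mitochondria. Of its genes 1 was higher without overlap, 3 were lower and 2 overlapped, against 62.8% higher and 1.47% lower among all genes above 0. Its most abundant gene, ng1, had 3.24 and 1.15 TPM in dmpnpaseKO mitochondria, against 0.331 and 0.871 TPM in control mitochondria, while the glue protein gene Sgs3 was at 0 in both dmpnpaseKO libraries, against 0.316 and 2.17 TPM in the controls. After scaling to the same summed nuclear-encoded TPM, 4 of the 6 tested muscle genes were lower without overlap and 0 were higher. Of the 7 tested midgut genes, 3 were higher and 0 lower. Of all 475 tested genes, 225 were higher and 81 lower without overlap under that scaling, and the midgut share of higher genes was near this. The part of tissue make-up or larval stage in the values of the Lcp65A genes was not tested.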

How the data were processed

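The authors quantified 42-bp paired-end reads of 8 J2 libraries (5 μg of RNA, 100 ng into each directional library) with Salmon 0.11.3 against the BDGP6 cDNA set of Ensembl release 94 and deposited TPM for 13970 genes. The summing of transcripts to genes is not described in the sources used here. Replicates were not pooled. TPM carry no read depth.

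Each library was scaled to the mean of the 8 rRNA pseudogenes named in the study's methods. Genes with a mean TPM of at least 1 (475) were tested on log2(scaled TPM + 1) with limma 3.58.1 in R 4.3.3, fitting 4 group means with an intensity trend and Benjamini-Hochberg adjustment at 0.05. The code was checked on simulated data. Symbols matched 13745 genes. Positions are from Ensembl release 115 of the same assembly. Members, lists and tests were chosen with earlier results of these data known. The genes named are the members, both other genes named for the cluster, up to 2 genes of highest mean TPM per list and the 3 genes most like each tested member. Cpr65Au and Cpr65Ax1 were added as neighbours after their values were seen. Cpr and l(3)mbn were left out of the cuticle list. Alternatives were 4 other scalings, pseudocounts of 0.1 and 10, other filters, no trend, fewer libraries, the replicate block and summed paralogs. Figures were drawn with matplotlib 3.10.9.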

Additional observations from a re-analysis of the deposited data

How the results depend on the processing

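Lcp65Ab1 stayed lower in dmpnpaseKO under the other scalings, both other pseudocounts and with each library left out. Lcp65Ag2, Lcp65Ag3 and the summed Ag genes stayed higher in mitochondria under the same settings. The filters, the trend, the replicate block and fitting only the libraries of the comparison cannot change a difference of group means. They are not counted here, and neither is the sum of Lcp65Ab1 with Lcp65Ab2, which was at 0. The log2 difference of Lcp65Ab1 in mitochondria was -4.63 under median-of-ratios scaling, -5.58 after scaling to the same summed nuclear-encoded TPM, -1.48 with a pseudocount of 10, and -7.91 as a share of nuclear-encoded TPM with no pseudocount, a measure added after seeing the data. For the summed Ag genes these values were 1.60, 0.89, 2.18 and 0.97. In the cytosol Lcp65Ab1 gave -2.78 and -2.81 under those 2 scalings, and -3.52 and -0.37 with pseudocounts of 0.1 and 10. Leaving out each library in turn gave -4.42 to -2.47 for Lcp65Ab1 in mitochondria, -2.59 to -0.65 in the cytosol and 3.17 to 4.19 for the summed Ag genes.

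The sign turned for Lcp65Ag1 under median-of-ratios scaling (-0.19), summed nuclear-encoded TPM (-0.88) and the share of it (-1.08). It turned for Lcp65Ae and Lcp65Af under summed nuclear-encoded TPM (-0.14 and -0.24) and the share of it (-0.42 and -0.75). These scalings lower the median of all tested genes to 0.74 and 0.39, against 2.23.

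Over all genes, the number called between the fractions of control larvae was 5, against 11 unscaled, 3 with the geometric mean of the pseudogenes, 16 under median-of-ratios scaling, 1 under summed nuclear-encoded TPM, 3 with no filter, 1 without the trend and 0 with only the libraries of the comparison (152 at an unadjusted p under 0.05). Leaving out each library gave 3 to 15, the highest without control cytosol replicate 1. In dmpnpaseKO larvae the number was 389, against 230 under median-of-ratios scaling, 4 under summed nuclear-encoded TPM, 116 with a mean of at least 5 TPM and 5705 with no filter, and 311 to 423 with each library left out. Between genotypes in mitochondria it was 386, against 32, 10, 112 and 5525 under those 4 settings and 191 with a pseudocount of 0.1, and 259 to 341 with each library left out.

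Against all cuticle genes rather than the 9 members, the mean share of Lcp65Ab1 in control mitochondria was 19.6% (83.7% of the members), and that of the Ag genes in dmpnpaseKO mitochondria was 39.6% (93.5% of the members). With each library left out these shares were 77.7% to 89.7% for Lcp65Ab1 and 92.7% to 94.3% for the Ag genes. Lcp65Ab1 passed the test between fractions of dmpnpaseKO larvae only when those libraries were fitted alone (limma adjusted p = 6.66e-06, the lowest of 15 alternatives, which reached 1). Its scaled levels there were low, 1.34 and 0.411 in mitochondria and 0.311 and 0 in the cytosol, the 0 in replicate 2. The SE of that fit was 0.13, against 0.41 from the spread of the libraries, so this p is not taken as support.

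The labels number the libraries 1 and 2 in each group without saying what a number shares, and with 2 libraries a group the numbers were not taken to pair them. With the number as a replicate block limma called 6 genes between fractions in control larvae, 396 in dmpnpaseKO larvae and 389 between genotypes in mitochondria. No call between fractions changed for Lcp65Ab1 in dmpnpaseKO larvae or for the Ag genes in control larvae. The correlation of deviations between same-numbered libraries ranged from -0.01 to 0.68 over the 4 comparisons. Depth is unknown for TPM, so no value at or near 0 can be given a counting limit.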
